A study of Mus musculus with 6 samples.

Results

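A set of 9 mouse genes of the class I antigen presentation pathway was followed in this series: the immunoproteasome catalytic subunits Psmb8, Psmb9 and Psmb10, the proteasome activator subunits Psme1 and Psme2, the peptide transporter subunits Tap1 and Tap2, the loading chaperone tapasin (Tapbp) and the class I light chain B2m. They were taken as a list by symbol, as 9 of the 19057 genes to which the platform annotation gave a probe of its own, and all 15 of their probes on the array were used. The list was drawn up with differences between doxycycline and control medium in these same arrays known, so every doxycycline minus control value of these genes below is a description and carries no test. Of the 15 probes, 14 were above background on at least 3 of the 6 arrays (detection p-value under 0.01) and entered the fits, and these 14 covered all 9 genes. The remaining probe, 1 of the 3 for B2m, was not above background on any array.

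The cells were AtT-20, a mouse corticotrope tumour line that makes the ACTH precursor POMC, carrying a stably integrated transgene for rat PAM-1 under doxycycline control. PAM is the granule membrane enzyme that amidates peptide hormones. From each of the labelled clones 14, 6_1 and 6_2, 1 culture spent 48 h in control medium and 1 in medium with doxycycline, the antibiotic that switches the transgene on, and total RNA of each culture was read on a whole-genome bead array. The question, as the title puts it, concerns signalling from the secretory granule to the nucleus through Uhmk1 and PAM.

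All 6 cultures therefore carried the transgene and grew in tetracycline-free serum, and cells without the transgene given doxycycline were not analysed here, so an effect of the drug and an effect of PAM-1 cannot be told apart. The dose is 4 µg/ml in the protocol but 4 mg/ml in the sample descriptions, a conflict that could not be resolved. Whether clones 6_1 and 6_2 arose separately is not stated. Each group held 3 cultures of different clones, and p-values below measure only the spread between these cultures. In such bulk cultures fewer cells expressing a gene and less RNA of it per cell cannot be told apart.

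The control arrays detected 37.2% to 37.9% of the 45281 probes and the doxycycline arrays 35.8% to 36.4%. The lowest values above background were 5.97 to 6.05 on control and 6.15 to 6.22 on doxycycline arrays. Over the 16902 tested probes any pair of arrays correlated at 0.94 or more. Of 7 corticotrope markers, 6 were measured (Pomc, Tbx19, Crhr1, Neurod1, Pcsk1 and Chga) and Pitx1 was not above background on enough arrays. None of the 5 leukocyte markers on the array and none of the 5 fibroblast markers was above background on any array in either medium, and of 3 endothelial markers 1 was (Kdr). The summed scanner signal of the leukocyte probes was 1286 to 1501 in control medium and 1444 to 1489 in doxycycline medium. On the mouse Pam probe that was tested, doxycycline arrays were higher by 0.35 (SE 0.18, limma adjusted p = 0.285), and whether this probe reads the rat transgene is not known. On the first principal component of all tested probes, which held 56.2% of the variance, the control array of clone 6_1 lay farthest out, at 56.5, while the control arrays of clones 6_2 and 14 lay at 18.7 and -11.2 and the doxycycline arrays at -33.7 to -8.51. Where the difference between media on the probe that stands for a named gene moved by over 1.5 times without clone 6_1, the value without that clone is given too.

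Class I molecules show peptides from inside the cell to cytotoxic T cells. The proteasome cuts proteins into peptides, the TAP transporter pumps them into the endoplasmic reticulum, and tapasin holds TAP and the class I heavy chain together until a peptide is bound and the complex with beta-2 microglobulin can leave for the surface. Interferon gamma, acting in part through IRF1, raises these genes together in many cell types and Psmb9, Psmb10 and Psmb8 then take the places of the standard catalytic subunits Psmb6, Psmb7 and Psmb5. The class I transactivator NLRC5 and NF-kappaB also act on class I genes. In GRCm38.p6 Psmb9, Tap1, Psmb8 and Tap2 are consecutive genes on chromosome 17 within the major histocompatibility complex, and Psme1 and Psme2 lie on chromosome 14 with only Emc9 between them.

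The sequences just before the start sites of 4 of these genes are shown because the genes are read together below and because the letters of known interferon and NF-kappaB elements were looked for in them. They are RefSeq sequences of GRCm38.p6, written 5′ to 3′ on the plus strand. RefSeq promoter windows of 300 bases (250 before and 50 after the start) were at hand for 8 of the 9 genes, all except Tap2, and only bases before the start are printed. The searched letters, on both strands, were GAAA, any 2 bases and GAAA for the interferon-stimulated response element core, TTC, any 3 bases and GAA for the gamma-activated site, and GGGA, any 2 bases and TTCC for the NF-kappaB site. In the B2m promoter at chr2:122147437-122147686 the capitals mark an interferon element core, which begins at position -139 from the start, and an NF-kappaB match on the minus strand, whose leftmost base is at -126. In the Psmb8 promoter at chr17:34197945-34198194 the capitals mark a gamma-activated site match, which begins at position -97. Tap1 and Psmb9 are read away from each other, and the stretch at chr17:34187331-34187555 lies before the starts of both. Its capitals mark CCAAT, the Y box, and the GC box GGGCGG, here on the minus strand.
B2m: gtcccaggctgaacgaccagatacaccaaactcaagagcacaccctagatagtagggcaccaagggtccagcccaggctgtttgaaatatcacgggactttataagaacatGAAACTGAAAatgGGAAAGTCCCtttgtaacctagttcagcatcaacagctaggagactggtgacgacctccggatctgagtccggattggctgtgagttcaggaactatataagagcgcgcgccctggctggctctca
Psmb8: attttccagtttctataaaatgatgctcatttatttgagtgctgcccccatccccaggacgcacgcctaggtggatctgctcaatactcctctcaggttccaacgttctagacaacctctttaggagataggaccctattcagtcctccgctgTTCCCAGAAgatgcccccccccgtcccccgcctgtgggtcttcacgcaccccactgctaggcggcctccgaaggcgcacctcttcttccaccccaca
Tap1 and Psmb9: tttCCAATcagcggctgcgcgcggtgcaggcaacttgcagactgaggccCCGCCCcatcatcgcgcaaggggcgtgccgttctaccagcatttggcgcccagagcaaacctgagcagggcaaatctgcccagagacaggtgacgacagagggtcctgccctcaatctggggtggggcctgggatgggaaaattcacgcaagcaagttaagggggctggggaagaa

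The interferon element core was found in the windows of 2 of the 8 genes, B2m and Psme1, against 3.44% of 32851 windows of the same length over all genes. The Psme1 match began at position 10, after the start and outside the printed bases. The gamma-activated letters were found for Psmb8 alone (8.3% of all windows) and the NF-kappaB letters for B2m alone (1.47%). CCAAT was found for Psmb9, Tap1, Tapbp and B2m (37.4% of all windows), GGGCGG for Psmb9, Psme1, Psme2, Tap1 and Tapbp (35.7%) and TATAAA for Psmb8 and B2m (13.6%). A match is a description of letters in a window and not a shown binding site.

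Among the 3 immunoproteasome catalytic subunits, doxycycline arrays read higher than control arrays in every clone on all 5 probes. Psmb8, the chymotrypsin-like subunit that replaces Psmb5, was above background on all 6 arrays on ILMN_1226683, with log2 normalised intensities of 9.47, 8.13 and 8.73 in control medium (clones 14, 6_1 and 6_2 in this and every list below) and 10.08, 9.52 and 9.69 in doxycycline medium. The groups did not overlap, since the lowest doxycycline array (clone 6_1) lay above the highest control array (clone 14). The mean difference was 0.99 (SE 0.19), or 1.98-fold. The other Psmb8 probe, ILMN_2693940, was near background, being above it on 3 of 6 arrays, and read 6.48, 5.86 and 5.02 in control and 7.0, 6.17 and 6.42 in doxycycline medium. Here the groups overlapped, and the difference was 0.74 (SE 0.23). Both Psmb8 probes were highest in clone 14 in either medium.

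Psmb9, the subunit that replaces Psmb6, gave a dim signal that was above background on 4 of 6 arrays, 1 of them a control array. Its values were 6.61, 5.54 and 5.97 in control and 6.74, 6.55 and 6.43 in doxycycline medium. The clone 14 control array lay above 2 of the doxycycline arrays, so the groups overlapped, and the mean difference of 0.54 (SE 0.20) came mostly from clones 6_1 (1.02) and 6_2 (0.46) and was 0.30 without clone 6_1. Psmb10, which replaces Psmb7 and carries the trypsin-like activity, gave the widest difference of the 14 probes. On ILMN_2914843 it read 7.39, 6.25 and 6.97 in control and 8.30, 8.29 and 8.09 in doxycycline medium, a difference of 1.36 (SE 0.23) or 2.56-fold. The 3 doxycycline arrays lay close together and all above the control arrays. The other Psmb10 probe, ILMN_2757870, gave 7.56, 6.83 and 6.68 against 7.94, 8.22 and 7.77, also without overlap, and a difference of 0.95 (SE 0.22). Over the 6 arrays the Psmb10 probes correlated at 0.91 and the Psmb8 probes at 0.76.

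**Figure D1:**
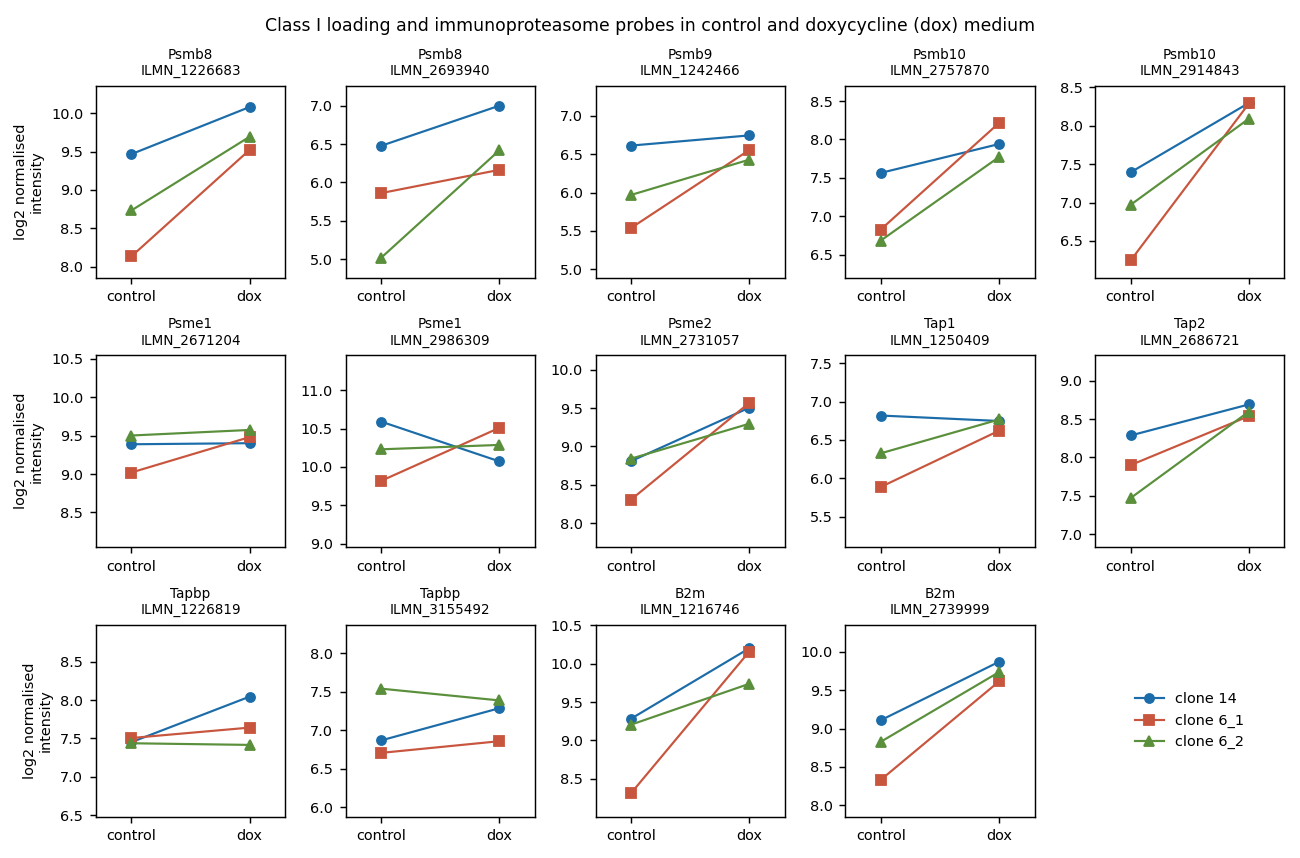
Log2 normalised intensity (y axes) of the 14 tested probes of the 9 genes on the 6 arrays, by medium, with a line joining the control and doxycycline array of each clone. Psmb10, B2m, Psme2, Tap2 and the Psmb8 probe ILMN_1226683 lie apart between the media, while Psme1, Tap1, Tapbp, Psmb9 and the Psmb8 probe ILMN_2693940 overlap, and the clone 6_1 control array is the lowest of 6 on 10 of the 14 probes.

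Psme1 and Psme2 encode the alpha and beta subunits of PA28, the ring that caps the proteasome and that interferon gamma raises with the immunosubunits. The partners did not read alike. Psme2 on ILMN_2731057 gave 8.81, 8.31 and 8.84 in control and 9.50, 9.57 and 9.30 in doxycycline medium, with no overlap and a difference of 0.80 (SE 0.20) or 1.75-fold. Psme1 on ILMN_2671204 gave 9.39, 9.02 and 9.50 in control and 9.40, 9.48 and 9.57 in doxycycline medium, which overlap, with a difference of 0.18 (SE 0.18), or 0.04 without clone 6_1. On ILMN_2986309 Psme1 read 10.59, 9.82 and 10.23 against 10.07, 10.51 and 10.29. There clone 14 was lower in doxycycline medium by 0.52 and clone 6_1 higher by 0.69, so the mean of 0.08 (SE 0.23) stands for no common direction, and without clone 6_1 it turned to -0.23. The difference between Psme2 and Psme1 was not itself tested.

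Tap1 and Tap2 form the transporter as a heterodimer. Tap2, on ILMN_2686721, read 8.29, 7.90 and 7.47 in control and 8.69, 8.54 and 8.60 in doxycycline medium, without overlap, and differed by 0.72 (SE 0.19) or 1.65-fold. Its clone 6_2 pair was widest, at 1.13. Tap1, on ILMN_1250409, was above background on 5 of 6 arrays, with 6.82, 5.89 and 6.33 in control and 6.75, 6.62 and 6.77 in doxycycline medium. Clone 14 read about the same in both media (-0.07) and clones 6_1 and 6_2 read higher by 0.73 and 0.44, giving a mean of 0.37 (SE 0.20), 0.18 without clone 6_1, and overlapping groups.

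Tapbp, which bridges TAP and the heavy chain, had 2 tested probes that the annotation assigns to different transcript records. ILMN_1226819 gave 7.45, 7.51 and 7.44 in control and 8.04, 7.64 and 7.42 in doxycycline medium, a difference of 0.24 (SE 0.18) carried by clone 14. ILMN_3155492 gave 6.87, 6.71 and 7.54 against 7.29, 6.86 and 7.39, a difference of 0.14 (SE 0.18). Both overlapped between media, and their values correlated at only 0.05 over the 6 arrays. Their doxycycline minus control differences nonetheless shared the order of the clones, at 0.59, 0.14 and -0.02 against 0.42, 0.15 and -0.15.

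B2m, the light chain shared by all class I molecules, was read by a pair of bright probes that correlated at 0.96. ILMN_1216746 gave 9.28, 8.31 and 9.21 in control and 10.20, 10.16 and 9.74 in doxycycline medium, a difference of 1.10 (SE 0.25) or 2.14-fold, and 0.72 without clone 6_1. ILMN_2739999 gave 9.11, 8.33 and 8.83 against 9.87, 9.61 and 9.73, a difference of 0.98 (SE 0.18). On both, every doxycycline array lay above every control array. Clone 6_1 had the widest pair on each, at 1.85 and 1.28, and its control array was the lowest.

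Over all probes, the fit with clone as a block called 53 probes between the media at an adjusted p under 0.05, 32 higher (0.189% of 16902) and 21 lower (0.124%) in doxycycline medium. None of the 14 probes was among them. With clone 14, 6_1 or 6_2 left out, 717, 78 and 400 probes were called over the array (4.24%, 0.461% and 2.37%). Some of the 14 probes were among these, and none of these calls tests the list. Every doxycycline array lay above every control array on 7 of the 14 probes, beside 12.1% of all tested probes, and all 3 clones read higher on 10 of 14, beside 23.9%. Since the list was chosen on this contrast, these counts describe it and support nothing. Without clone 6_1 they were 7 of 14 (19.3% of all probes) and 10 of 14 (32.4%).

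**Figure D2:**
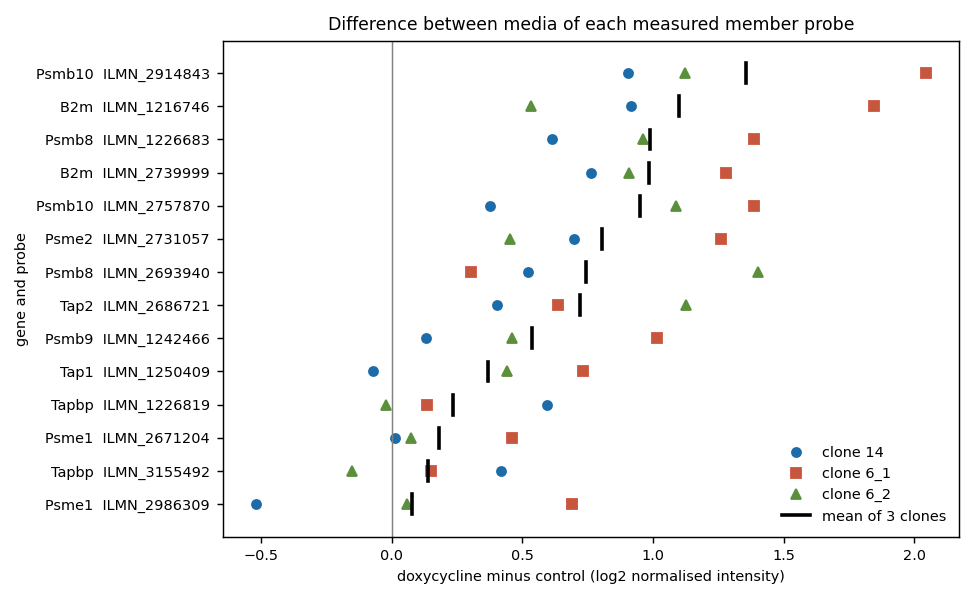
Doxycycline minus control difference in log2 normalised intensity (x axis) of each of the 14 tested probes (y axis), with each clone as a point and the mean of the 3 clones as a bar. Clone 6_1 gives values from 0.14 to 2.04, and ILMN_2986309 of Psme1, the Tap1 probe and both Tapbp probes have clones on either side of 0.

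By clone, the median of the 14 differences was 0.47 in clone 14 (12 of 14 higher), 0.87 in clone 6_1 (14 of 14) and 0.50 in clone 6_2 (12 of 14), while the median over all tested probes was between -0.02 and 0.00 in each clone. The control array of clone 6_1 was the lowest of the 6 on 10 of the 14 probes, as it was on 31% of all probes. The spread between clones was wider in control than in doxycycline medium on 13 of 14 probes, beside 67.9% of all probes. For ILMN_1226683 of Psmb8 the SD over the 3 clones was 0.67 in control and 0.29 in doxycycline medium, and for Tap2 it was 0.41 and 0.08. ILMN_1226819 of Tapbp went the other way, at 0.04 and 0.32. Whether the wider spread in control medium belongs to the clones or to the clone 6_1 array was not tested.

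The differences between clones were tested in the same fit, with medium as a block. They share all 6 arrays with the medium contrast, on which the list was chosen, and the clone 6_1 control array weighs on both. The clone contrasts are therefore not shown to be free of that choice, and their counts and p-values are not independent tests of the list. Clone 6_1 read below clone 14 on all 14 probes (median -0.40), and clone 6_2 below clone 14 on 12 of 14 (median -0.29). Of all 9196 genes, by brightest probe, 4819 read below clone 14 in clone 6_1 (median -0.02) and 4573 in clone 6_2 (median 0.00). None of the 14 passed in either direction. Over all probes limma called 9 higher (0.0532%) and 14 lower (0.0828%) in clone 6_1 than in clone 14, and 9 higher (0.0532%) and 15 lower (0.0887%) in clone 6_2 than in clone 14. Between clones 6_2 and 6_1 it called 0 probes in either direction (0% and 0%), with 452 of 16902 probes at an unadjusted p under 0.05. At an unadjusted p under 0.05 there were 4 of the 14 probes for clone 6_1 against 14, beside 15.6% of all probes, 2 for clone 6_2 against 14, beside 10.7%, and 1 for clone 6_2 against 6_1, beside 2.67%.

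Psmb8 had the lowest p-values of the 9 genes in both contrasts against clone 14. On ILMN_1226683 clone 6_1 was lower than clone 14 by 0.94 (SE 0.24), with a limma adjusted p of 0.139 over all probes in that contrast and 0.248 over the 3 contrasts together. Clone 6_2 was lower than clone 14 by 0.56 (SE 0.24, limma adjusted p = 0.446). On ILMN_2693940 clone 6_2 was lower by 1.02 (SE 0.28, limma adjusted p = 0.24), and without clone 6_1, when 1032 of all probes (6.11%) were called, that value passed (adjusted p = 0.0389). On that probe clone 6_2 was above background only on its doxycycline array. Its control value, 5.02, lay under the lowest value above background of its control array, 5.97. The clone 6_2 minus 14 difference was -1.46 in control and -0.58 in doxycycline medium. Clone 6_1 was not well above background on either of its arrays with that probe. Its fitted difference from clone 14 was -0.73 (SE 0.28, limma adjusted p = 0.265). A lower bound on that gap was 1.52-fold and was not tested. This bound sets the clone 14 mean against the higher of the array's lowest value above background and the probe's own.

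Among the other genes, Psmb9 was lower in clone 6_1 than in clone 14 by 0.63 (SE 0.25, limma adjusted p = 0.277), Tap1 by 0.53 (SE 0.24, adjusted p = 0.337), and the B2m probes by 0.51 and 0.52 (adjusted p = 0.437 and 0.306). ILMN_3155492 of Tapbp was higher in clone 6_2 than in 6_1 by 0.68 (SE 0.22, limma adjusted p = 0.998). The Psme1, Psme2, Tap2 and Psmb10 probes differed between clone 6_1 and 14 by values from -0.58 to -0.14, with adjusted p-values of 0.361 to 0.792. With 2 arrays per clone, both arrays of clone 14 lay above both of clone 6_1 on 4 of the 14 probes (17.4% of all probes) and above both of clone 6_2 on 3 (20.6%). The gap was wider in control medium, where the median difference from clone 14 was -0.75 for clone 6_1 (13 of 14 lower) and -0.39 for clone 6_2 (11 of 14 lower). In doxycycline medium these medians were -0.14 and -0.19, each with 10 of 14 lower. Over all probes the medians of the same differences lay between 0.00 and 0.01 in either medium. Whether the gap differed between media was not tested, since each clone had 1 array per medium.

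**Figure D3:**
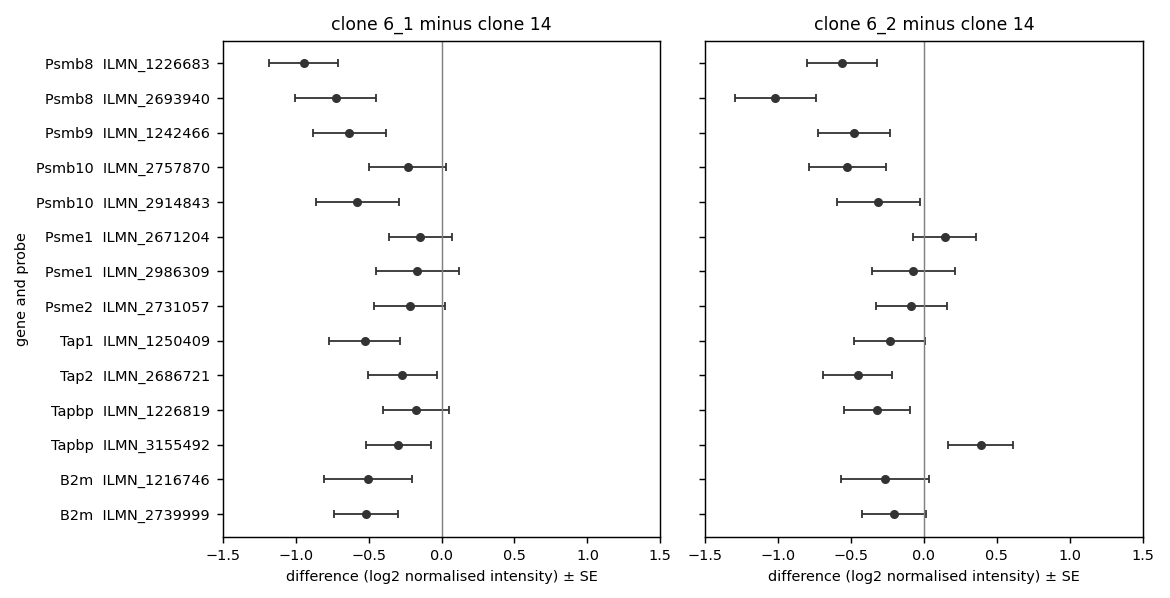
Differences between clones in log2 normalised intensity (x axis) for the 14 tested probes (y axis), as the mean over both media with its standard error. Clone 6_1 lies below clone 14 on all 14 probes, with a median of -0.40, and clone 6_2 lies below clone 14 on 12.

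The rest of the pathway was read from gene lists set by role, with the brightest tested probe standing for each gene. These lists were chosen with earlier results of these data known, so their p-values are not independent tests of the pathway. At this level 9196 genes were measured, of which 18 were called higher (0.196%) and 13 lower (0.141%) in doxycycline medium, and the median difference over them was 0.00. Of the 79 companion genes limma called 0, and 14 (17.7%) had an unadjusted p under 0.05, beside 22.3% of all tested probes. The median over the 9 chosen genes was 0.72, or 0.58 without clone 6_1. Of 22 class I heavy chain and loading helper genes on the array, 11 were measured and 9 read higher in doxycycline medium, with a median of 0.19, while without clone 6_1 8 did and the median was 0.11. Of the classical heavy chains, which pair with B2m, H2-K1 was higher by 0.28 (SE 0.17, limma adjusted p = 0.334) and H2-D1 by 0.26 (SE 0.20, adjusted p = 0.455), the latter 0.017 without clone 6_1. H2-K1 read 11.03, 10.46 and 10.65 in control and 11.19, 10.74 and 11.06 in doxycycline medium, so its groups overlapped. The other tested probe of H2-K1 gave 0.35, or -0.017 without clone 6_1, and the 3 tested probes of H2-D1 spanned 0.15 to 0.27. Heavy chain genes are close in sequence, and their probes may read one another. H2-Q8 and the tapasin relative Tapbpl were higher by 0.41 and 0.42 (adjusted p = 0.263 and 0.34), or 0.16 and 0.11 without clone 6_1. Tapbpl was lower in doxycycline medium in clone 6_2 (-0.32). Nlrc5, the class I transactivator, was not above background on any array.

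Core proteasome genes read in the same direction as the immunosubunits. All 3 standard catalytic subunits were higher in doxycycline medium, Psmb5 by 0.54 (SE 0.17, limma adjusted p = 0.135), Psmb6 by 0.58 (SE 0.23, adjusted p = 0.191; 0.24 without clone 6_1) and Psmb7 by 0.34 (SE 0.17, adjusted p = 0.27). The other tested Psmb6 probe, ILMN_2777337, gave 0.60, or 0.44 without clone 6_1. The 4 tested Psmb7 probes spanned 0.27 to 0.66. So a standard subunit and the immunosubunit that replaces it were both read higher, as with Psmb5 and Psmb8, and no test set one against the other. All 8 measured genes among the other 20S core subunits read higher (median 0.35), with Psmb3 at 0.49 and Psmb1 at 0.43, or 0.23 and 0.24 without clone 6_1. Of 6 other activators and assembly chaperones 4 read higher, among them Psmg3 at 0.62 (SE 0.18, adjusted p = 0.123) and Pomp, the chaperone that matures the core, at 0.47, or 0.25 without clone 6_1. Psme4, which encodes the nuclear activator PA200, was lower by 0.43 (adjusted p = 0.269), and its value without clone 6_1 was -0.13. The 19S cap, which feeds ubiquitinated proteins into the core, was mixed, with 12 of 19 higher and a median of 0.15. Psmd8 was higher by 0.50 (adjusted p = 0.193). Psmd1 was lower by 0.52 on its brightest probe (adjusted p = 0.197), with a value of -0.24 without clone 6_1, while its other tested probes gave -0.57 and 0.24 and so did not share a direction. Without clone 6_1 the medians of the catalytic, other core, activator and 19S lists were 0.26, 0.20, 0.16 and 0.06.

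Upstream of the class I genes, 5 of 13 measured interferon receptor, JAK-STAT and IRF genes read higher in doxycycline medium, with a median of -0.15. Jak1, the kinase shared by both interferon receptors, was lower by 0.56 (SE 0.19, limma adjusted p = 0.145), and Ifnar2, a type I interferon receptor chain, was higher by 0.48 (adjusted p = 0.164) on one probe and by 0.10 on the other, which gave -0.21 without clone 6_1. Irf1, the factor that acts on Tap1 and Psmb9, was higher by 0.33 on its brightest probe (SE 0.16, adjusted p = 0.271), while its other tested probes gave 0.36, -0.02 and 0.00. Of 34 interferon-stimulated genes outside class I loading on the array, 12 were measured. The others, Ifit1, Mx1 and Cxcl10 among them, were not above background on enough arrays. Of the 12 measured genes 10 read higher, with a median of 0.30. They were led by Ifitm1 at 0.73 (SE 0.22, adjusted p = 0.133) and Ifi35 at 0.50 (adjusted p = 0.191), or 0.41 and 0.26 without clone 6_1. Of 8 NF-kappaB genes on the array 6 were measured, and 5 of these read higher (median 0.22), with Relb at 0.59 (SE 0.20, adjusted p = 0.151), or 0.35 without clone 6_1. Without clone 6_1 the medians of these lists were -0.06, 0.25 and 0.20. Of 14 class II presentation genes only Rfxap was measured, and it was higher by 0.39 (adjusted p = 0.254), or 0.22 without clone 6_1.

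**Figure D4:**
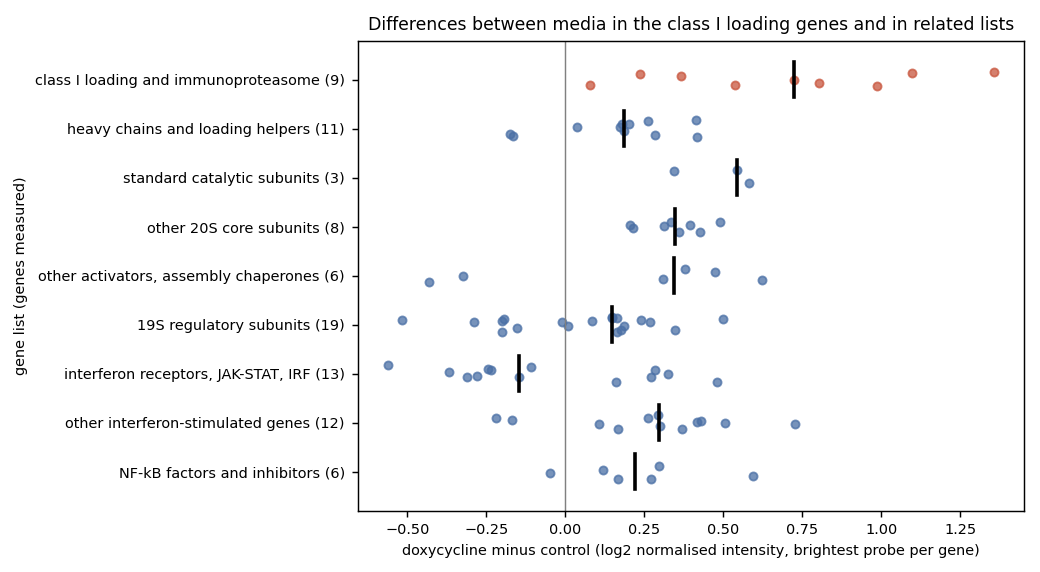
Doxycycline minus control difference in log2 normalised intensity (x axis) of every measured gene of each list (y axis, brightest probe), with the list's median as a line. The medians are 0.72 for the 9 chosen genes, 0.54 for the standard catalytic subunits, 0.35 for the other 20S core subunits and -0.15 for the interferon receptor, JAK-STAT and IRF genes.

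Between clones limma called 0 of the 79 companion genes, with 15 (19%) at an unadjusted p under 0.05 for clone 6_1 against 14, beside 15.6% of all probes, and 10 (12.7%) for clone 6_2 against 14, beside 10.7%. Over all genes it called 7 higher (0.0761%) and 10 lower (0.109%) of 9196 genes for clone 6_1 against 14, and 7 higher (0.0761%) and 10 lower (0.109%) for clone 6_2 against 14. The interferon-stimulated genes outside class I loading read below clone 14 on 10 of 12 genes in both clone 6_1 (median -0.43) and clone 6_2 (median -0.37), contrasts that share the clone 14 arrays. Usp18, an interferon-induced protease that removes ISG15, was lower in clone 6_1 by 1.04 (SE 0.20, limma adjusted p = 0.102) and in clone 6_2 by 0.88 (adjusted p = 0.163). Parp14 was lower by 0.76 (adjusted p = 0.174) and 0.97 (adjusted p = 0.163). Irf9, part of the type I interferon signalling complex, was higher in clone 6_1 than in clone 14 by 0.66 (SE 0.21, adjusted p = 0.197). The standard catalytic subunits were all lower in clone 6_1 than in clone 14 (median -0.40), while in clone 6_2 2 of 3 were lower (median -0.19) and Psmb5 was higher by 0.14. For clone 6_1 against 14, 9 of 11 class I heavy chain and helper genes were lower (median -0.26), and for clone 6_2 against 14, 7 of 11 (median -0.16).

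Across the 6 arrays the 9 genes were summarised by their brightest probes, each centred on its mean. The median deviation was 0.04, -0.75 and -0.28 in the control arrays of clones 14, 6_1 and 6_2, and 0.45, 0.26 and 0.24 in their doxycycline arrays. The clone 6_1 control array was lowest and the clone 14 doxycycline array highest. The same arrays lay at the ends of the first principal component, whose sign is arbitrary. The part of whatever sets that component in these values was not tested. Correlated over the 6 arrays with the mean of the other members, Psmb8 and Psmb10 reached 0.97, Psmb9 0.96, B2m 0.95, Psme2 0.91, Tap1 0.88 and Tap2 0.79, while Psme1 (0.47) and Tapbp (0.44) followed less. All of these share the same 6 arrays, and a high value is common on them, since 936 of 9187 other genes (10.2%) correlated with the mean profile of the 9 at over 0.9. The 8 genes most like it were Rnf113a1, Tmem238, Nudt22, Uxt, Fcf1, Mrps24, Cd163l1 and Lgals1, all at a correlation of 1.00 over 6 arrays, and none belongs to the lists above. Rnf113a1, the most like, read 9.33, 8.60 and 8.92 in control and 9.67, 9.55 and 9.40 in doxycycline medium.

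**Figure D5:**
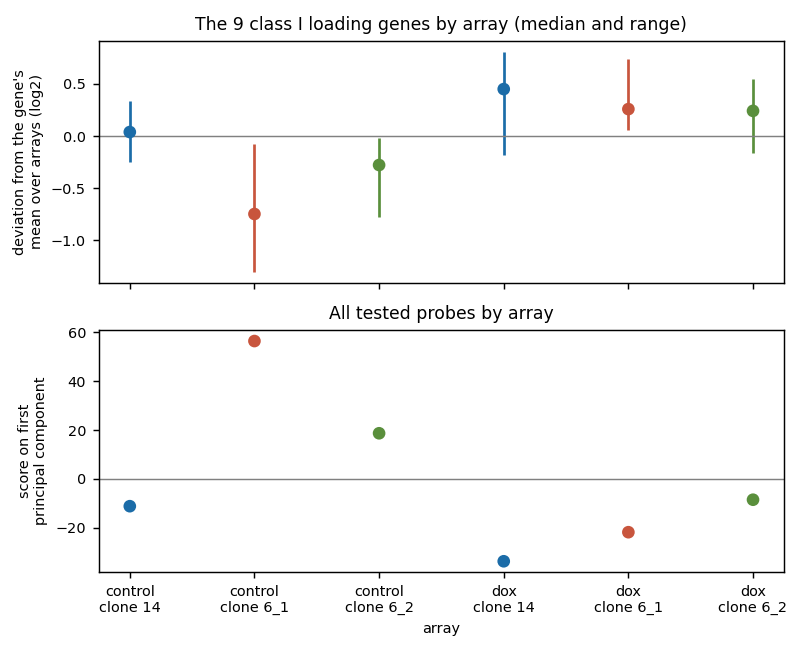
Deviation of the 9 genes from their mean over arrays in log2 (upper panel, median as a point and range as a line) and score on the first principal component of all 16902 tested probes (lower panel) for each of the 6 arrays (x axis). The clone 6_1 control array is lowest for the genes, with a median deviation of -0.75, and highest on the component, at 56.5. The sign of the component is arbitrary.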

How the data were processed

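Total RNA of 6 cultures (3 clones, control or doxycycline medium) was hybridised to Illumina MouseWG-6 v2.0 arrays. The authors deposited a non-normalised scanner intensity per probe and, beside each intensity, a p-value for detection (per the file headers), and a table of processed intensity values made in a way that no label or header records. The submitters' processing notes name BeadStudio and GenomeStudio without a version. Of the columns used, 0 belonged to other series.

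Scanner intensities were background-corrected from the detection p-values, offset by 16, quantile-normalised and put on a log2 scale with neqc of limma 3.58.1 in R 4.3.3. The offset shrinks differences of dim probes. Probes with a detection p under 0.01 on at least 3 of 6 arrays were tested with lmFit and eBayes (clone and medium as terms, 2 residual and 6.95 prior degrees of freedom, two-sided). Benjamini-Hochberg adjustment ran over all 16902 tested probes, at a threshold of 0.05. The steps were tested on simulated data with independent noise and no component shared by the probes of an array. That test therefore does not show the error rates on these arrays. The number of arrays limits precision, and standard errors of the members' medium differences were 0.18 to 0.25. Values of different probes are not compared as levels.

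Clone was a block since, per the labels, both media were used on every clone. Deviations of same-clone arrays from their group means correlated at 0.54, -0.02 and 0.14 for clones 14, 6_1 and 6_2, so the pairing rests on the labels. Symbols came from the platform annotation (34885 probes with 1 symbol, 18 with several, 10378 with none). The 9 genes and the companion lists were chosen with earlier results of these data known. Genes were named by rule: every probe of the 9 genes, up to 4 companion genes of smallest p per list, set probes of the standard subunits and regulators, the 8 most like the mean profile, and Pam and Pomc as checks. Alternatives were another normalisation (cyclic loess, median scaling), the authors' processed values, other filters on dim probes, no clone block, leaving out each clone, single media, and the mean over a gene's probes. The lists and companion genes without clone 6_1 were an alternative chosen after seeing the data. Both probes of Pomc were tested, and the brighter read higher in doxycycline medium by 0.08 (limma adjusted p = 0.796).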

Additional observations from a re-analysis of the deposited data

Results flagged for a closer look

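On 4 of the 14 tested probes the clones differed in sign between the media, and with 1 array per clone and medium the difference between clones was not tested. Psme1 on ILMN_2986309 gave doxycycline minus control values of -0.52 for clone 14, 0.69 for 6_1 and 0.057 for 6_2. Tap1 on ILMN_1250409 gave -0.071, 0.73 and 0.44 in the same order. Tapbp gave 0.59, 0.14 and -0.021 on ILMN_1226819, and 0.42, 0.15 and -0.15 on ILMN_3155492. The Tapbp probes share the order of the clones, with clone 14 highest, while on the Psme1 and Tap1 probes clone 14 was lowest.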

How the results depend on the processing

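Under the alternatives, 550 of the 591 recomputed values kept their direction and, where tested, their side of the threshold. The other filters on dim probes used the same normalised values, so they cannot change a probe's difference. Nor can leaving out the clone block change a difference between media. A direction kept under those alternatives was fixed in advance and is no sign of robustness. Between media, the 53 called probes became 165 with median scaling, 1 with no filter on dim probes, 33 with no replicate block, and 78 to 717 when each clone was left out. The report called 0 probes of the 9 genes. At least 1 was called with cyclic loess (77 of all probes, 0.456%), with median scaling and with each clone left out. Since the genes were chosen on this contrast, these calls do not test them. The median difference of the 9 genes was 0.43 with the authors' processed values and 0.55 to 0.85 with a clone left out. Without the replicate block, the paired design's term for clone, no probe of the 9 genes was called. No difference could turn there, since with both media on every clone only the standard errors change. With a clone left out, ILMN_3155492 of Tapbp ranged from -0.00055 (without clone 14) to 0.29, and ILMN_2986309 of Psme1 from -0.23 (without clone 6_1) to 0.37.

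For clone 6_1 against 14, the 23 called probes became 206 with median scaling, 6 with no filter and 308 without clone 6_2. For clone 6_2 against 14, the 24 became 82 with median scaling, 5 with no filter and 1032 without clone 6_1, which also brought 1 called probe of the 9 genes, ILMN_2693940 of Psmb8, at -1.02. The median there was -0.47 with median scaling, under which ILMN_2671204 of Psme1 turned to -0.034. Without clone 14, clones 6_2 and 6_1 differed on 2 probes. Clone 6_1 minus 14 turned, in doxycycline arrays only, to 0.28 for ILMN_2757870 of Psmb10, 0.079 and 0.44 for Psme1 and 0.063 for Psme2, and in control arrays only to 0.054 for ILMN_1226819 of Tapbp. Clone 6_2 minus 14 turned to 0.21 for ILMN_2986309 of Psme1 and 0.019 for Tap1 in doxycycline arrays and to 0.032 for Psme2 in control arrays. Clone 6_2 minus 6_1 turned, in doxycycline arrays, to 0.26 for ILMN_2693940 of Psmb8, -0.13 for Psmb9, -0.20 for ILMN_2914843 of Psmb10, -0.22 for ILMN_2986309 of Psme1, -0.27 for Psme2, 0.059 for Tap2 and -0.42 for ILMN_1216746 of B2m. Averaging a gene's probes, the 19S list median for clone 6_2 minus 14 turned to 0.052 and the interferon receptor list median for clone 6_2 minus 6_1 to -0.066. The cause of these moves was not tested, except that leaving out a clone or the filter alters the number of samples or probes in the fit. Psmb9, Tap1 and ILMN_2693940 of Psmb8 lie near background, where the offset shrinks differences. On that Psmb8 probe the clone 6_2 pair was nonetheless wider (1.40) than on ILMN_1226683 (0.96). With 3 arrays a group, the adjusted p of the 9 genes moved with the choice of clones.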
